A study of Mus musculus with 12 samples.

Results

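Hyaluronan is a long, unsulphated sugar polymer of the extracellular matrix. The 7 genes examined make it (*Has1*, *Has2*, *Has3*), break it down (*Hyal1*, *Hyal2*, *Cemip*) or bind it at the cell surface (*Cd44*). They were listed by name and function, with earlier results of these data known, and are 7 of the 54532 genes in the deposited table. All 7 symbols matched 1 Ensembl gene each, and 6 of the 7 passed the filter on low values (a normalised count of at least 10 in at least 6 libraries). *Has3* did not. Hyaluronan is spun out through the plasma membrane by synthases from 2 activated sugars, UDP-glucuronic acid and UDP-N-acetylglucosamine. In the developing limb it fills the space around loose mesenchymal cells, is cleared as cells condense into cartilage, and is made again in the cavities of forming joints. Cells take it up and cleave it through receptors such as CD44 and hyaluronidases of the cell surface and lysosome.

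The cells were mesenchymal cells of mouse limb buds at embryonic stage E14.5, sorted by fluorescence, and polyA RNA was sequenced in bulk. Males carrying Prrx1-Cre, which expresses Cre recombinase in limb bud mesenchyme, had been crossed to females with 2 Rosa26 alleles, each silent until Cre removes a stop cassette (LSL). The 6 iCreb5 libraries came from cells in which Cre had switched on LSL-bovine-Creb5-ires-GFP, a transgene for HA-tagged bovine Creb5 (a bZIP transcription factor) and GFP. The 6 tdTomato libraries, the controls, came from cells in which it had switched on LSL-tdTomato, a red fluorescent protein. Cells of both groups therefore carried Prrx1-Cre and an active Rosa26 transgene, and differed in which one. The transgene is active in the Prrx1-Cre lineage only, and the sources used here do not say whether each library came from 1 embryo or from several. Litter 3 gave libraries 3a, 3b and 3c of each group, litter 4 gave 4a of each, litter 5 gave iCreb5 5 and tdTomato 5b, and litter 6 gave iCreb5 6 and tdTomato 6d. The labels name 4 litters, while the design text speaks of 6. Litter and batch cannot be told apart, because no 2 litters share a batch label.

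Recovered reads ran from 9.02 M (tdTomato 3a) to 53.3 M (tdTomato 3b) per library. *Creb5* measured 2799 ± 214 normalised counts in iCreb5 against 1803 ± 299 in tdTomato (SD, n = 6; limma adjusted p = 0.00219), and *Prrx1* was present in all 12 libraries at 4158 ± 575 and 4986 ± 943 (adjusted p = 0.352). The *Creb5* value is that of the mouse gene, and the sources used here do not say whether reads of the bovine transgene were counted in it. Of 16733 genes tested with limma, 1125 (6.72%) had an adjusted p under 0.05, 648 higher (3.87%) and 477 lower (2.85%) in iCreb5. With libraries rescaled to equal totals 799 were higher and 382 lower, which moved the share of rises from 57.6% to 67.7%. Markers of other cells differed between the groups. Of 14 leukocyte markers 13 were higher in iCreb5, with a summed level of 2637 to 11731 there and 759 to 1340 in tdTomato, and *Ptprc* was at 0 in tdTomato 3a, 4a and 5b. Of 9 endothelial markers 6 were higher, with sums of 1376 to 3986 and 1049 to 1677. All 6 cartilage markers were lower in iCreb5, with sums of 68253 to 100779 and 131386 to 317957. Of the markers of epidermis (6 tested) and skeletal muscle (5 tested) 0 passed, and of 8 limb mesenchyme markers 1 did (*Tbx4*, higher). In bulk RNA, fewer cells of a type and less RNA per cell cannot be told apart.

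None of the 6 tested hyaluronan genes passed the threshold between iCreb5 and tdTomato cells, against 6.72% of all genes tested. Only *Cemip* had an unadjusted p under 0.05 with limma. The count of calls was also 0 with litter as a block, a fit in which 9.48% of all genes passed, and 0 with edgeR and with DESeq2, and neither of these tools gave any of the 6 an unadjusted p under 0.05. The groups overlapped for all 6, against 4.75% of tested genes in which they did not. The median log2 change of the 6 genes was 0.11, beside 0.00384 for all genes tested, and 4 of the 6 had a change above 0. The changes that did pass lay elsewhere in the pathway, in 3 of 8 precursor genes tested (2 of hexosamine supply, 1 of glucuronic acid supply) and 3 of 6 receptors. They also lay in 3 of 10 matrix partners of hyaluronan and 2 of 6 genes that work with CD44, all described further on. The call was lost in 8 of 24 alternatives for *Ugdh* and in 11 of 23 for *Bcan*. *Bcan* also passed the filter mainly through tdTomato libraries, where it was high.

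**Figure D1:**
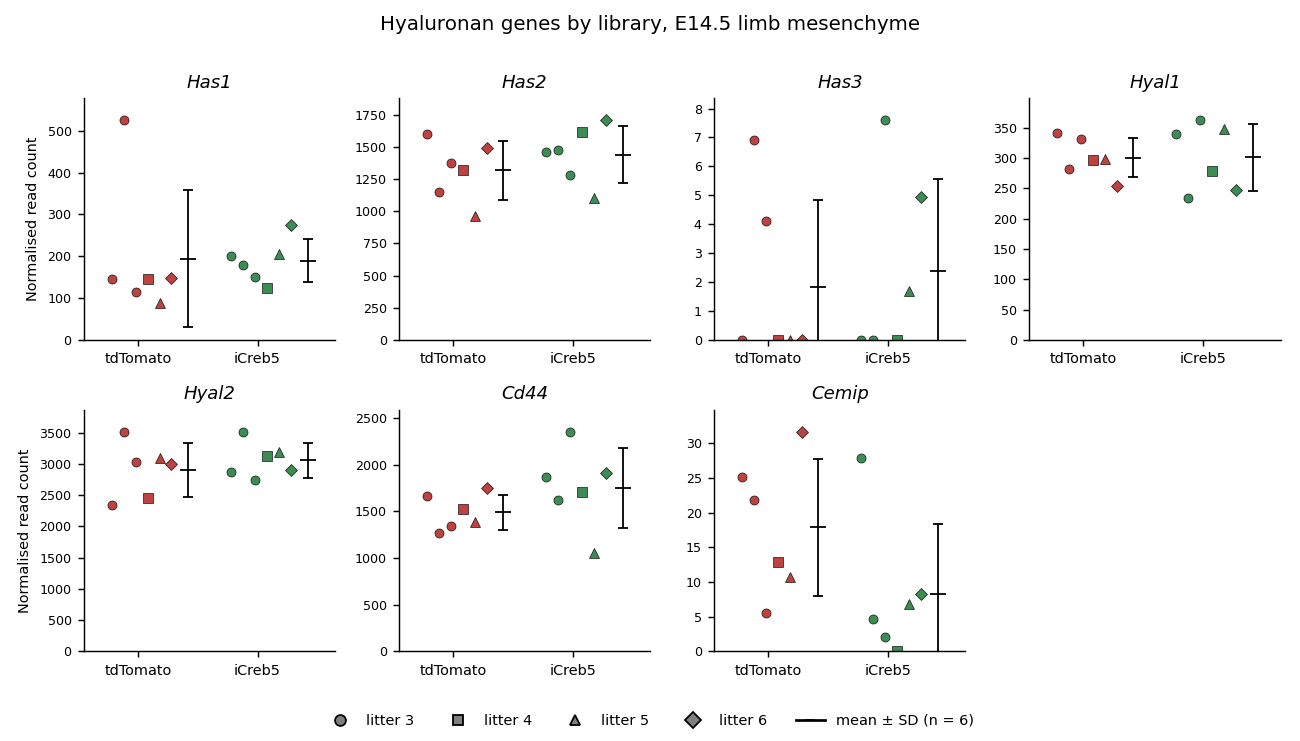
Normalised read count (y axis, linear, starting at 0) of the 7 hyaluronan genes in the 6 tdTomato and 6 iCreb5 libraries; each point is a library, its shape gives the litter, and the bar is the mean ± SD (n = 6). The groups overlap in every panel; the lone high point of *Has1* is tdTomato 3b at 525, and *Has3* stays below 8 throughout.

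To compare the genes with each other, normalised counts were divided by the length of each gene's merged exons in kilobases. On that scale *Hyal2* had the highest level, at 904 ± 108 per kilobase (mean ± SD over all 12 libraries), followed by *Has2* at 326 ± 53.1 and *Cd44* at 239 ± 50.3. *Hyal1* followed at 79.7 ± 11.4 and *Has1* at 42.5 ± 25.6. *Cemip* at 1.07 ± 0.879 and *Has3* at 0.330 ± 0.464 were far below the rest. *Hyal2* was above *Has2*, *Cd44* above *Hyal1*, and *Has1* above *Cemip* in 12 of 12 libraries, and the ranges of these pairs did not overlap. *Has2* was above *Cd44* in 11 of 12 libraries, *Hyal1* above *Has1* in 11 of 12 and *Cemip* above *Has3* in 8 of 12, and the ranges of these neighbours overlapped. The order was the same when the longest transcript was used as the length. Of the 7 genes, these cells thus held transcripts mainly of 1 synthase, *Has2*, 1 hyaluronidase, *Hyal2*, and the receptor gene *Cd44*.

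*Has2* encodes the synthase on which the early embryo and the limb depend for most of their hyaluronan. It lies on mm10 chromosome 15, 56665627 to 56694539, minus strand (ENSMUSG00000022367). Its normalised count ran from 1100 (iCreb5 5) through a median of 1470.5 to 1707 (iCreb5 6) in iCreb5, and from 965 (tdTomato 5b) through 1349 to 1600 (tdTomato 3a) in tdTomato. Litter 5 gave the lowest library of both groups, and 4 of the 6 iCreb5 libraries lay between the tdTomato extremes. The means were 1441 ± 221 and 1318 ± 231 (SD, n = 6), a log2 change of 0.13 ± 0.14 (SE) with a 95% interval of -0.17 to 0.43 (limma adjusted p = 0.698). That interval runs from 0.891-fold to 1.35-fold. The change was above 0 in each of the 4 litters, at 0.05, 0.29, 0.19 and 0.19 for litters 3 to 6, and with litter as a block its adjusted p was 0.494. The antisense gene *Has2os* (56689944 to 56778399, plus strand) overlaps *Has2*. It measured 37.8 ± 6.23 in iCreb5 and 46.6 ± 17.3 in tdTomato (n = 6), and the reads of the overlap cannot be told apart, since the sources used here do not say whether strand was used.

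*Has1* encodes a second synthase, best known from inflamed and injured tissue. It lies on mm10 chromosome 17, 17843323 to 17855205, minus strand (ENSMUSG00000003665). Its count ran from 125 (iCreb5 4a) through 190.3 to 274 (iCreb5 6) in iCreb5 and from 88.2 (tdTomato 5b) through 145 to 525 (tdTomato 3b) in tdTomato. Library tdTomato 3b, the deepest, stood apart from the other 5 tdTomato libraries, which reached at most 149. The log2 change over all 12 libraries was 0.20 ± 0.34 (SE), with a 95% interval of -0.53 to 0.92 and a limma adjusted p of 0.828. The mean was 189 ± 51.4 in iCreb5 and 195 ± 164 in tdTomato (SD, n = 6), so that the means were in the reverse order to the log2 change, and edgeR gave -0.06 and DESeq2 -0.05. Without tdTomato 3b the log2 change was 0.54, with an adjusted p of 0.214. Within litters it was -0.23 in litter 3, -0.21 in litter 4, 1.20 in litter 5 and 0.88 in litter 6. The difference between litter 3 and litters 4 to 6 had an interaction adjusted p of 0.697.

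*Has2* supplied most of the synthase transcripts in every library. Its share of the 3 synthases' summed level per kilobase was 85.1% to 93.2% (median 89.2%) in iCreb5 and 69.8% to 92.5% (median 91.8%) in tdTomato. The lowest share, 69.8%, was that of tdTomato 3b, where *Has1* made up 29.9%. *Has3*, the third synthase gene (chromosome 8, 106870242 to 106884566, plus strand; ENSMUSG00000031910), was close to absent. It gave 40 reads over all 12 libraries and at most 15 in any, and was at 0 in 3 iCreb5 and 4 tdTomato libraries. Its highest values were 7.59 in iCreb5 3c and 6.92 in tdTomato 3b. A library's value at 3 reads, the limit that a count of 0 allows, was 1.48 to 8.38, so a difference in *Has3* was not detectable at this depth and none was tested.

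Creb5 belongs to the CREB and ATF family, whose members bind the cyclic AMP response element (CRE), TGACGTCA, and, as partners of Jun proteins, the related AP-1 site, TGACTCA. The 300-base RefSeq windows around transcription starts (250 bases before to 50 after, build GRCm38.p6) were searched for exact matches on both strands. The CRE reads the same on both strands, and neither motif contains the other. A CRE stood in 588 of 32851 windows (1.79%) and an AP-1 site in 1709 (5.20%). A window was given for 5 of the 7 hyaluronan genes (*Has1*, *Hyal1*, *Hyal2*, *Cd44* and *Cemip*), and 1 of the 5, *Has1*, held a CRE while 0 held an AP-1 site. Among 48 other pathway genes, 41 had a window, 2 of them with a CRE (*Gusb* and *Habp4*) and 4 with an AP-1 site (*Ezr*, *Gfpt2*, *Itih2* and *Tnfaip6*). The 60 bases of *Has1* (chr17:17855238-17855297, minus strand) are shown because it is the only gene with the element among the 5, with those of *Habp4* (chr13:64161725-64161784, plus strand) beside it, each 5′ to 3′ in the direction of the gene and with the CRE in capitals.
Has1: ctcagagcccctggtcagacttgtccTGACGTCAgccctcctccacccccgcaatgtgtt
Habp4: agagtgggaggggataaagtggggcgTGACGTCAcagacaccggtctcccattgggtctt
The element lies 83 to 76 bases before the RefSeq start in *Has1* and 115 to 108 before it in *Habp4*. Neither gene passed the test (adjusted p = 0.828 for *Has1* and 0.574 for *Habp4*). Of the 4 genes with an AP-1 site, *Itih2* was below the filter on low values and was not tested. How many genes with the site passed among all genes was not counted. *Gfpt2* and *Ezr* passed, both lower in iCreb5 (2.85% of all genes tested were). *Tnfaip6* did not pass over all 12 libraries without a litter term. The stretches of *Gfpt2*, *Ezr* and *Tnfaip6* (chr11:49793906-49793964, plus; chr17:6782781-6782838, minus; chr2:52037945-52038003, plus) are printed the same way, with the AP-1 site in capitals.
Gfpt2: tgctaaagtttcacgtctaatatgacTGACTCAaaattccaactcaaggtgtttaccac
Ezr: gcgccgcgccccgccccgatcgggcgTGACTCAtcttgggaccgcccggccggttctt
Tnfaip6: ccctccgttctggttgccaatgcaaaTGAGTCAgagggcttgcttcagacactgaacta
The site of *Tnfaip6* is on the opposite strand to the gene and so reads TGAGTCA. A match is a description of these letters, and binding was not measured.

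*Hyal2* encodes a hyaluronidase anchored to the cell surface, which cuts long chains into fragments. It lies on mm10 chromosome 9, 107567945 to 107572779, plus strand (ENSMUSG00000010047). Its count ran from 2748 (iCreb5 3c) through 3011 to 3507 (iCreb5 3b) in iCreb5 and from 2340 (tdTomato 3a) through 3011 to 3509 (tdTomato 3b) in tdTomato. The medians of the groups were the same to the whole count. The means were 3054 ± 276 and 2901 ± 436 (SD, n = 6), with a log2 change of 0.08 ± 0.11 (SE), a 95% interval of -0.16 to 0.32 and a limma adjusted p of 0.770. It was the steadiest of the 7 genes in iCreb5, with an SD of 9.03% of the mean, and 15.0% in tdTomato.

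*Hyal1* encodes the lysosomal enzyme that takes the fragments further. It lies beside *Hyal2* (chromosome 9, 107576927 to 107581710, plus strand; ENSMUSG00000010051). Its count ran from 234 (iCreb5 3b) through 309 to 362 (iCreb5 3c) in iCreb5 and from 254 (tdTomato 6d) through 298 to 341 (tdTomato 3a) in tdTomato. The means, 302 ± 55.3 and 301 ± 31.9 (SD, n = 6), were nearly equal, and the log2 change was -0.01 ± 0.15 (SE; 95% interval -0.33 to 0.31; limma adjusted p = 0.985). Its gene model overlaps *Naa80* and *Hyal3* on the same strand, so reads of the overlaps could have been split between them. Per kilobase, *Hyal2* stood 8.70 to 17.2 times as high as *Hyal1* in iCreb5 libraries (median 11.7) and 7.88 to 14.2 times in tdTomato (median 11.2).

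*Cemip* encodes a secreted protein that binds hyaluronan and starts its depolymerisation in skin and synovial fibroblasts. It lies on mm10 chromosome 7, 83932857 to 84086502, minus strand (ENSMUSG00000052353). It was barely transcribed, with 0 to 44 reads in a library. Its count ran from 0 (iCreb5 4a) through 5.69 to 27.8 (iCreb5 3a) in iCreb5 and from 5.48 (tdTomato 3c) through 17.3 to 31.6 (tdTomato 6d) in tdTomato. It passed the filter on low values through 5 tdTomato libraries and 1 iCreb5 library, so mainly through the group where it was high. The mean was 8.24 ± 10.1 in iCreb5 and 17.9 ± 9.87 in tdTomato (SD, n = 6). The log2 change was -1.53 ± 0.69 (SE), with a 95% interval of -3.00 to -0.06, an unadjusted p of 0.0429 and a limma adjusted p of 0.252. The change was below 0 in all 4 litters, from -0.58 in litter 5 to -3.79 in litter 4, where the iCreb5 library had no read. The adjusted p was 0.389 with limma and no filter on low values, 0.438 with edgeR and 0.432 with DESeq2. A difference in *Cemip* therefore did not pass in either direction at this depth.

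*Cd44* encodes the main surface receptor for hyaluronan, which also binds osteopontin and links the matrix to the actin cortex. It lies on mm10 chromosome 2, 102811141 to 102901665, minus strand (ENSMUSG00000005087). Its count ran from 1055 (iCreb5 5) through 1784 to 2349 (iCreb5 3c) in iCreb5 and from 1272 (tdTomato 3b) through 1456 to 1747 (tdTomato 6d) in tdTomato. The iCreb5 group held both the lowest and the highest of the 12 libraries. The means were 1750 ± 424 and 1489 ± 188 (SD, n = 6), with a log2 change of 0.20 ± 0.16 (SE) and a 95% interval of -0.14 to 0.54 (limma adjusted p = 0.574), or 0.908-fold to 1.46-fold. Without iCreb5 5 the log2 change was 0.34 (adjusted p = 0.126). It was 0.44 within litter 3 (adjusted p = 0.208) and -0.04 for litters 4 to 6 (adjusted p = 0.923), where litters 4, 5 and 6 gave 0.16, -0.40 and 0.12. The test of the difference between these sets of litters gave an interaction change of -0.48 with an unadjusted p of 0.0739 and an adjusted p of 0.580. *Cd44* is also made by leukocytes and endothelial cells. The summed leukocyte markers stood at 6986 in iCreb5 5, where *Cd44* was lowest, and at 5221 in iCreb5 3c, where it was highest. The summed endothelial markers went the other way, with the lowest iCreb5 value, 1376, in iCreb5 5 and the highest, 3986, in iCreb5 3c. The other iCreb5 libraries did not repeat the leukocyte order. The highest leukocyte sum, 11731, was in iCreb5 6 with *Cd44* at 1904, and the lowest, 2637, in 4a with *Cd44* at 1702. The endothelial order did not hold throughout either. That sum was 2869 in iCreb5 6, below the 3229 of 3b with *Cd44* at 1623. Its median was 3049 in iCreb5 and 1232 in tdTomato, between which *Cd44* did not pass. The part of either cell type in the level of *Cd44* was not tested.

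The genes that feed, clear and bind hyaluronan around these 7 were taken as lists by function. Of 8 genes that supply the sugar precursors, 3 fell in iCreb5 (2.85% of all genes did), 0 rose and 5 did not pass, with a median log2 change of -0.26. *Gfpt1* and *Gfpt2* encode the enzymes of the first, rate-limiting step towards UDP-N-acetylglucosamine. *Gfpt1* ran from 1080 through 1415 to 1583 in iCreb5 and from 1836 through 1941 to 2074 in tdTomato. No iCreb5 library reached the lowest tdTomato library. It was 1.44-fold higher in tdTomato (means 1374 ± 220 and 1954 ± 80.6, SD, n = 6; log2 change -0.52 ± 0.11 SE; limma adjusted p = 0.0093). *Gfpt2* ran from 2050 through 2398 to 2841 in iCreb5 and from 2471 through 3822 to 4601 in tdTomato, overlapping at those ends, and was 1.52-fold higher in tdTomato, with a log2 change of -0.60 ± 0.14 (SE) and an adjusted p of 0.0132. Both were lower in iCreb5 in each of the 4 litters, with log2 changes of -0.76 to -0.39 for *Gfpt1* and -0.79 to -0.27 for *Gfpt2*.

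*Ugdh* encodes the dehydrogenase that makes UDP-glucuronic acid, which chondroitin and heparan sulphate also need. It ran from 6067 through 8109 to 10230 in iCreb5 and from 9464 through 11250 to 15256 in tdTomato. The groups overlapped, and the means were 7883 ± 1602 and 11621 ± 2032 (SD, n = 6). It was 1.48-fold higher in tdTomato, with a log2 change of -0.57 ± 0.14 (SE) and a limma adjusted p of 0.0244. Its log2 change was -0.91 within litter 3 (adjusted p = 0.0201) and -0.23 for litters 4 to 6 (adjusted p = 0.397), with 0.11 in litter 5, and the interaction adjusted p was 0.510. The call was lost without iCreb5 3a (adjusted p = 0.0620) or 3c (0.0603), without tdTomato 3a (0.0553) or 3b (0.0565), with libraries rescaled to equal totals (0.0513) and with no filter on low values (0.0540). The summed cartilage markers, which include large users of these sugars, were lower in iCreb5 in the same libraries, and their part in the change of these 3 genes was not tested. *Ugp2*, which makes UDP-glucose, and *Gpi1*, an enzyme of glycolysis that supplies fructose 6-phosphate, did not pass. *Ugp2* measured 6125 ± 728 and 5789 ± 585 (adjusted p = 0.766) and *Gpi1* 4213 ± 391 and 4056 ± 257 (adjusted p = 0.828) in iCreb5 and tdTomato (SD, n = 6, limma). *Gnpnat1*, *Pgm3* and *Uap1*, the later steps of the hexosamine route, had log2 changes of -0.31, -0.22 and -0.20 and adjusted p of 0.230, 0.288 and 0.265.

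**Figure D2:**
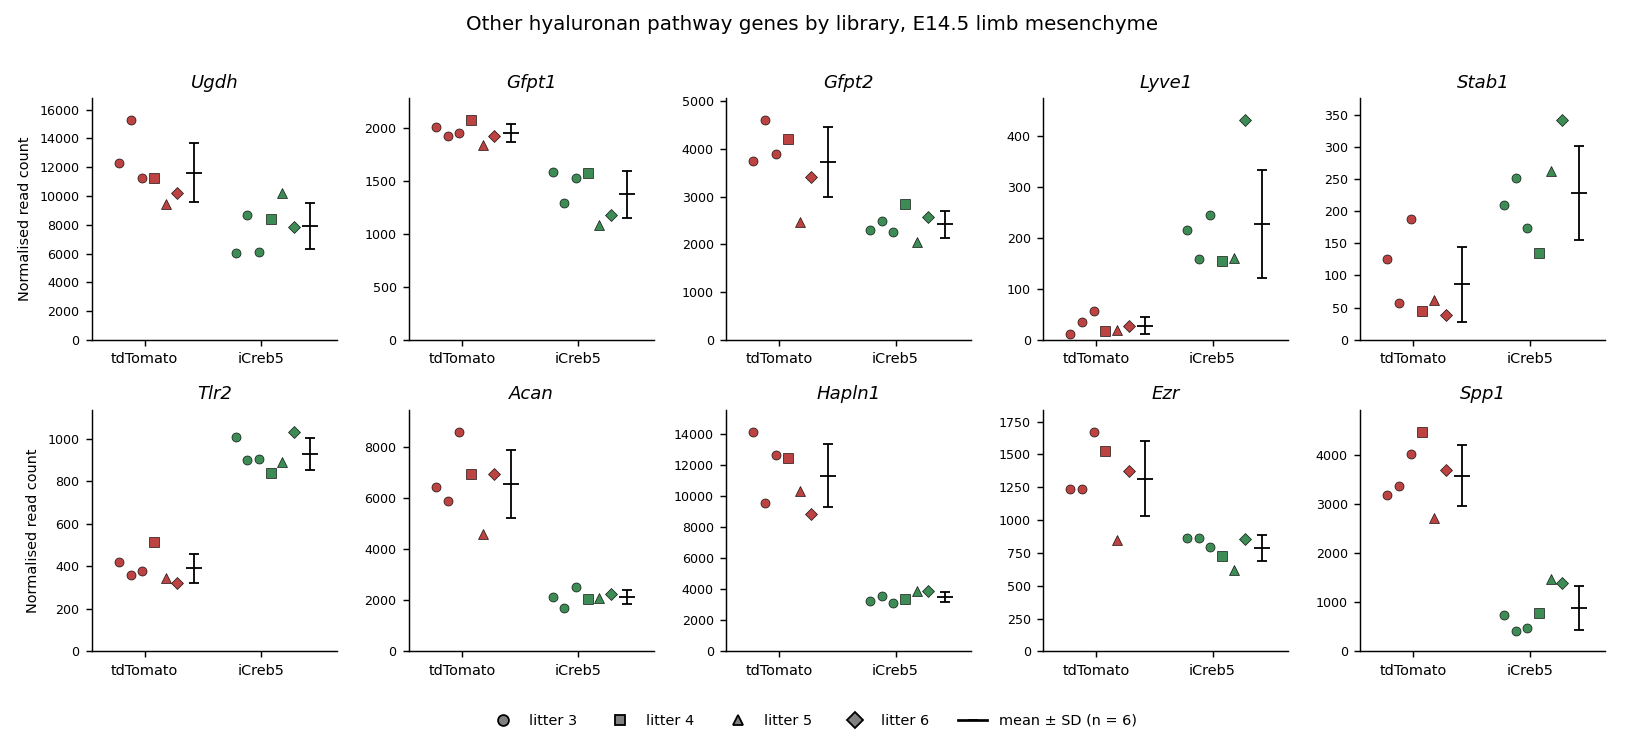
Normalised read count (y axis, linear, starting at 0) of 10 other pathway genes in the 6 tdTomato and 6 iCreb5 libraries; points are libraries, shapes are litters, and the bar is the mean ± SD (n = 6). *Gfpt1*, *Lyve1*, *Tlr2*, *Acan*, *Hapln1* and *Spp1* show no overlap between the groups, whereas *Ugdh*, *Gfpt2*, *Stab1* and *Ezr* do.

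Of 9 further genes of hyaluronan breakdown, 5 were tested and 0 passed, against 6.72% of all genes. None of the 5 had an unadjusted p under 0.05 with limma, edgeR or DESeq2. *Hexa* and *Gusb*, lysosomal enzymes that trim sugars from the ends of fragments, were the most abundant of those tested. *Hexa* measured 4705 ± 360 in iCreb5 and 4394 ± 392 in tdTomato (SD, n = 6; limma adjusted p = 0.647), and *Gusb* 2182 ± 111 and 2199 ± 240 (adjusted p = 0.988). *Cemip2*, a membrane relative of *Cemip* known for surface cleavage of hyaluronan, ran from 559 to 1825 in iCreb5 and from 752 to 1330 in tdTomato (log2 change -0.15 ± 0.27 SE, adjusted p = 0.829). *Hyal3*, a further hyaluronidase gene, had an adjusted p of 0.529. The sperm and testis hyaluronidase genes *Spam1* and *Hyal5*, with *Hyal4* and *Hyal6*, had 0 reads in all 12 libraries, which allows up to 1.48 to 8.38 normalised counts in a library.

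Of 7 other receptor genes 6 were tested, and 3 were higher in iCreb5 (3.87% of all genes were), 0 lower, and 3 did not pass. *Lyve1*, a receptor of lymphatic vessels and some tissue macrophages, ran from 154 through 188 to 431 in iCreb5 and from 11.2 through 23.1 to 56.2 in tdTomato. Every iCreb5 library was above every tdTomato library. It was 8.40-fold higher in iCreb5 (log2 change 3.07 ± 0.36 SE; limma adjusted p = 6.31e-05), by 2.79 within litter 3 and 3.35 within litters 4 to 6. *Tlr2*, an innate immune receptor that also senses hyaluronan fragments, ran from 839 through 905 to 1033 in iCreb5 and from 323 through 369 to 514 in tdTomato, again without overlap. It was 2.40-fold higher in iCreb5 (log2 change 1.26 ± 0.13 SE; adjusted p = 1.63e-05). *Stab1*, a scavenger receptor of macrophages and sinusoidal endothelium, ran from 135 through 230.3 to 341 in iCreb5 and from 39.0 through 60.1 to 188 in tdTomato. The groups overlapped because tdTomato 3c at 188 was above iCreb5 4a at 135. It was 2.97-fold higher in iCreb5 (log2 change 1.57 ± 0.35 SE; adjusted p = 0.0116), by 0.91 within litter 3 (adjusted p = 0.250) and 2.24 for litters 4 to 6 (adjusted p = 0.00919). Without iCreb5 5 and 6 together its log2 change was 1.35 and its adjusted p 0.0580.

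*Lyve1* and *Stab1* are textbook genes of macrophages or lymphatic vessels, and *Tlr2* is an innate immune receptor. Most markers of leukocytes and endothelium were higher in the iCreb5 group. In iCreb5 5 the endothelial sum, 1376, lay within the tdTomato range of 1049 to 1677, while *Stab1* stood at 262. Of the 9 endothelial markers 6 were higher within litter 3 and 1 within litters 4 to 6. Of all genes, 4.11% passed in each of these fits, in either direction. The median log2 change was 2.75 for the 14 leukocyte markers and 1.63 for the 9 endothelial markers. Of the lymphatic markers in that list, *Flt4* was higher in iCreb5 (log2 change 1.94, limma adjusted p = 0.0465), and *Prox1* did not pass, at 61.3 ± 32.9 and 63.1 ± 46.4 (SD, n = 6; limma adjusted p = 0.971). The leukocyte sum was highest in iCreb5 6 (11731), which also had the highest *Lyve1* (431), and lowest among iCreb5 in 4a (2637), which had the lowest *Stab1* (135) and *Lyve1* (154). In iCreb5 5 the leukocyte sum was the second highest (6986), while *Lyve1* stood at 161, below the group's median of 188. *Tlr2* was also highest in iCreb5 6 (1033) and lowest among iCreb5 in 4a (839), a far narrower range than that of the leukocyte sum. The tdTomato libraries, with leukocyte sums of 759 to 1340, did not repeat this order. There *Tlr2* was highest in 4a (514), which had the lowest leukocyte sum (759), and lowest in 6d (323), where the sum was 1097. The part of leukocytes and endothelium in the 3 receptors' change was not tested. *Hmmr*, an intracellular and surface binder of hyaluronan tied to cell division, measured 2198 ± 125 and 1922 ± 133 in iCreb5 and tdTomato (SD, n = 6; log2 change 0.19 ± 0.09 SE; limma adjusted p = 0.262). *Layn*, a membrane receptor related to C-type lectins, measured 115 ± 29.9 and 154 ± 38.7 (adjusted p = 0.312). *Tlr4* had an adjusted p of 0.913. *Stab2*, the clearance receptor of liver sinusoids, was below the filter, with 86.6 in tdTomato 3a and at most 13.7 in any other library.

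Of 18 matrix genes whose products bind hyaluronan, 10 were tested, and 3 were lower in iCreb5 (2.85% of all genes were), 0 higher (3.87%), and 7 did not pass (median log2 change -0.12). Aggrecan and its link protein are the partners of hyaluronan in cartilage. *Hapln1*, the link protein gene, ran from 3090.3 through 3471 to 3908 in iCreb5 and from 8840 through 11352 to 14097 in tdTomato, and was 3.19-fold higher in tdTomato, with a log2 change of -1.67 ± 0.12 (SE) and a limma adjusted p of 5.52e-07. *Acan*, the aggrecan gene, ran from 1685 through 2123 to 2535 and from 4596 through 6694 to 8608, and was 3.06-fold higher in tdTomato, with a log2 change of -1.61 ± 0.14 (SE) and an adjusted p of 2.82e-06. Neither overlapped between the groups, and both were lower in iCreb5 in each of the 4 litters. *Acan* is also 1 of the 6 cartilage markers, all lower in iCreb5. *Bcan*, a proteoglycan gene best known from brain, was scarce, at 6.22 ± 5.35 and 24.9 ± 9.50 (SD, n = 6), and 4.67-fold higher in tdTomato (limma adjusted p = 0.0316). It passed the filter on low values through all 6 tdTomato libraries and 1 iCreb5 library, so through the group where it was high. Its call was lost with no such filter (adjusted p = 0.0693), with edgeR (adjusted p = 0.0512), without iCreb5 3a or 6, and without tdTomato 3b, 3c, 5b or 6d, where the adjusted p reached 0.0763.

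*Vcan*, the proteoglycan versican of loose mesenchyme, was abundant and did not pass, at 5462 ± 910 in iCreb5 and 5742 ± 851 in tdTomato (SD, n = 6; log2 change -0.08 ± 0.13 SE; 95% interval -0.35 to 0.20; limma adjusted p = 0.822). *Tnfaip6* encodes TSG-6, which moves heavy chains onto hyaluronan and crosslinks it. It ran from 2706 through 3727 to 5530 in iCreb5 and from 2164 through 2720 to 3975 in tdTomato. The groups overlapped, and the log2 change was 0.49 ± 0.19 (SE), with an adjusted p of 0.161. With litter as a block the adjusted p was 0.0386, and the change was above 0 in all 4 litters, at 0.23 within litter 3 (adjusted p = 0.504) and 0.75 for litters 4 to 6 (adjusted p = 0.0185). *Itih5*, a heavy-chain gene, measured 2382 ± 514 and 1763 ± 371 (adjusted p = 0.156). *Ptx3*, *Habp4*, *Ncan* and *Hapln3* had adjusted p of 0.674, 0.574, 0.185 and 0.248.

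**Figure D3:**
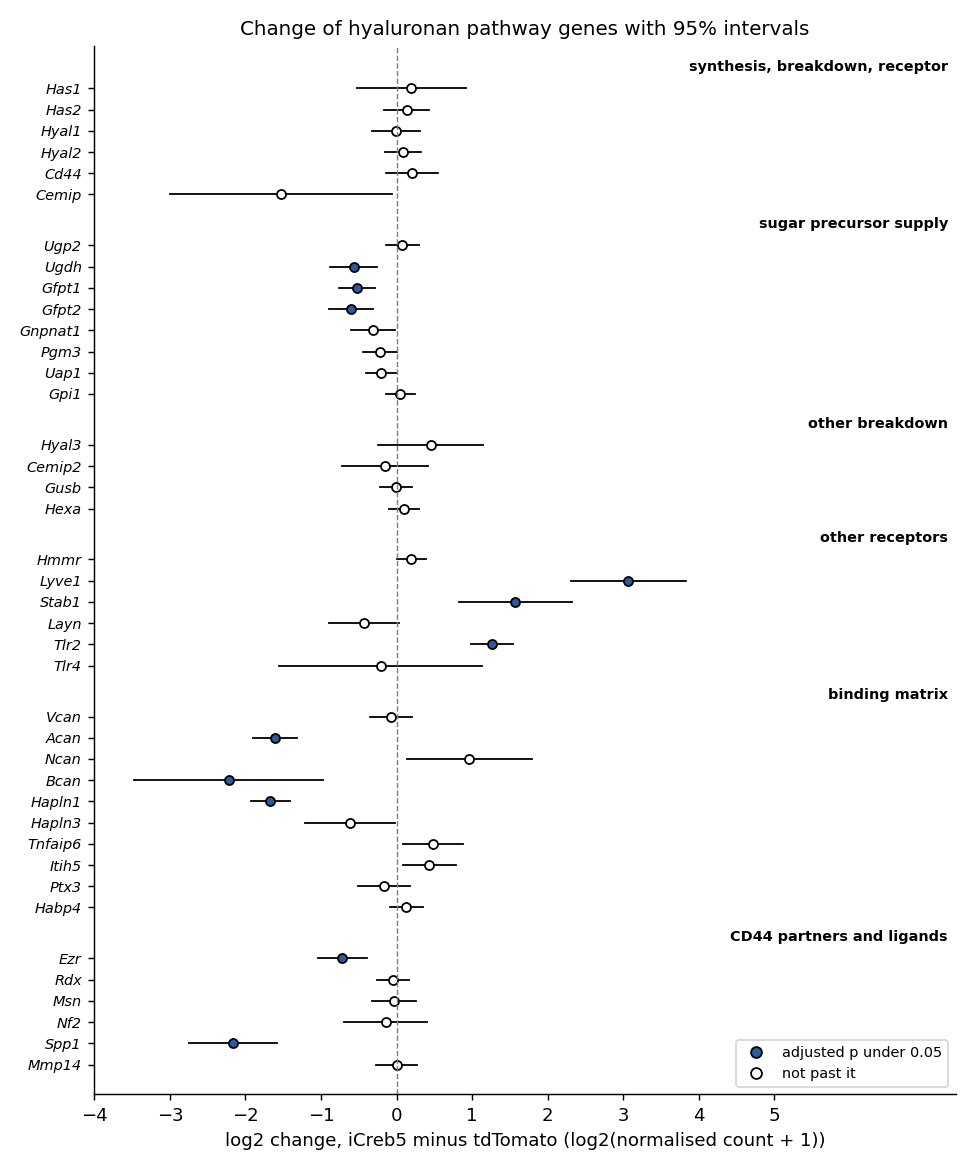
Log2 change of normalised count plus 1, iCreb5 minus tdTomato (x axis), for the tested genes of the hyaluronan lists that are reported here, with the 95% interval as a line; filled points have a limma adjusted p under 0.05. The 6 tested synthesis, breakdown and *Cd44* genes are all open points, while filled points lie to the left in precursor supply, binding matrix and CD44 partners, and to the right among other receptors.

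Of 6 genes for partners and ligands of CD44, 2 were lower in iCreb5 (against 2.85% of all genes), 0 higher, and 4 did not pass. *Spp1*, which encodes osteopontin, a bone matrix protein that CD44 binds, ran from 415 through 761 to 1470 in iCreb5 and from 2714 through 3529 to 4469 in tdTomato. The groups did not overlap, and it was 4.49-fold higher in tdTomato, with a log2 change of -2.17 ± 0.27 (SE) and a limma adjusted p of 0.000109. *Ezr* encodes ezrin, which ties the tail of CD44 to actin. It ran from 619 through 827 to 860.5 in iCreb5 and from 846 through 1304 to 1671 in tdTomato, overlapping only through tdTomato 5b, and was 1.64-fold higher in tdTomato, with a log2 change of -0.72 ± 0.15 (SE) and an adjusted p of 0.00837. Its relative *Rdx* (radixin) measured 6940 ± 430 and 7226 ± 1016 (SD, n = 6; limma adjusted p = 0.858), and *Msn* (moesin) 4170.3 ± 731 and 4259 ± 619 (adjusted p = 0.930). *Mmp14*, a membrane protease that sheds CD44, measured 15381 ± 2875 and 15243 ± 1883 (adjusted p = 0.999). *Nf2*, a related membrane linker, had an adjusted p of 0.838.

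Litter 3 and litters 4 to 6 were also fitted apart. The first fit lies within 1 batch label, and the second takes differences within each of 3 and has litter as a term. Of the 6 tested hyaluronan genes 0 passed in either set, against 4.11% of all genes in each. *Hyal1*, *Hyal2* and *Has2* had log2 changes of -0.05 to 0.05 within litter 3 and of 0.03 to 0.22 within litters 4 to 6. *Cemip* had -0.99 and -2.07 (adjusted p = 0.605 and 0.234). *Has1*, *Cd44* and *Hyal1* had changes of opposite sign in the sets. Of the interactions between set and group, 0 of 16733 passed an adjusted p under 0.05 with limma and 1500 had an unadjusted p under 0.05. This lack of calls does not show that the changes were alike in both sets.

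**Figure D4:**
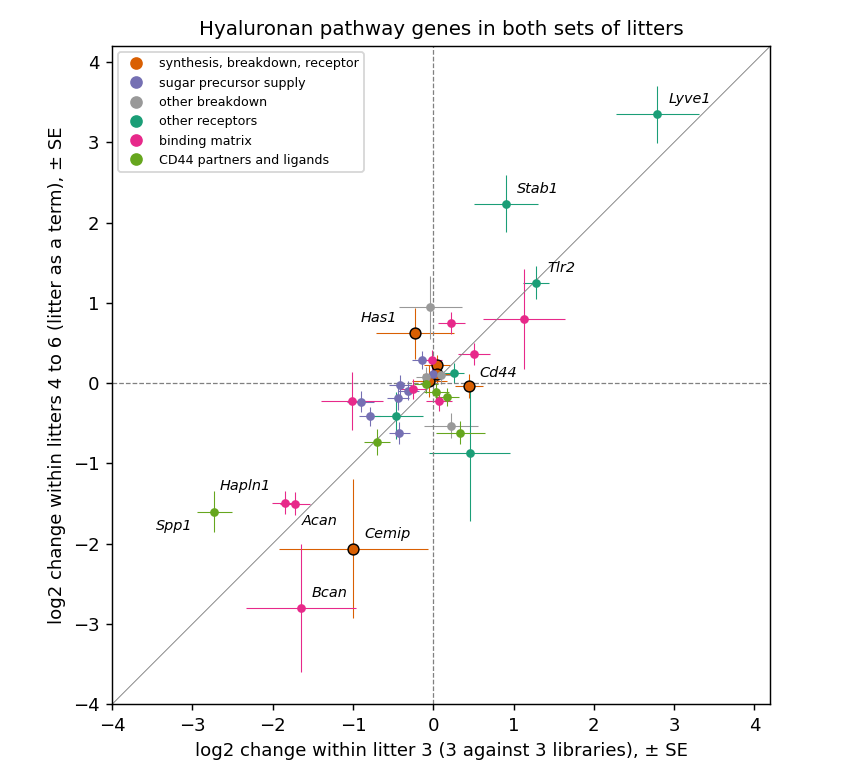
Log2 change (iCreb5 minus tdTomato) within litter 3, x axis, against that within litters 4 to 6, y axis, for the tested genes of the hyaluronan lists; crosses are ± SE, colours are lists, and the thin line marks equal changes. *Has1* (-0.23 and 0.62) and *Cd44* (0.44 and -0.04) lie on different sides of 0 in the sets of litters, and *Lyve1* and *Tlr2* lie at the upper right.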

How the data were processed

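Bulk polyA RNA was measured in 12 libraries. FastQC, STAR, Salmon, DESeq2 and the build mm10 appear in the submitters' processing notes, without versions or roles. The sources used here do not say how strand and transgene reads were handled. The deposited values are a normalised signal per gene: judged from the values, the authors divided gene counts by a size factor per library, and 100% of values were whole reads (tolerance 1e-06) once divided by each library's unit. The P0 table was not used here, because none of its 8 columns could be tied to a sample's labels.

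The test was limma 3.58.1 (R 4.3.3; lmFit and trended eBayes, two-sided) without covariates, applied to log2(value + 1). It covered the 16733 genes that reached a value of 10 in 6 or more libraries, with Benjamini-Hochberg adjustment over all of them and a threshold of 0.05. Folds are on the log2(value + 1) scale, where the added 1 weighs on scarce genes. For *Cemip* the log2 change was -1.53 on that scale, -1.74 with 0.5 added and -0.94 with 5 added. With edgeR it was -1.10 and with DESeq2 -1.12, so the folds of scarce genes depend on the method. A library's value at 3 reads was 1.48 to 8.38, which covers counting error only. Litter labels pair the groups, since each label names a shared litter, and the fit with litter as a block was an alternative, with edgeR 4.0.16 and DESeq2 1.42.0 on the recovered reads among 24 in all. The script was tested on simulated data. The p-values reflect only the spread among these libraries, of which 3 in each group share a litter. Positions and exon lengths are from GENCODE M21 (GRCm38, which is mm10), and promoter windows from RefSeq.

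The members and lists were chosen with earlier results of these data known. The text names all 7 members. From each hyaluronan list it names the genes past the threshold, up to 4 by size of change, and the 2 of highest level that did not pass. Genes named besides these were chosen after their values were seen, except the label checks *Creb5* and *Prrx1*. Of the limb mesenchyme list 1 of 8 genes (*Tbx4*) was higher in iCreb5, and of the joint interzone list 3 of 8 (*Wnt16*, *Prg4* and *Osr2*). Of all genes 3.87% were higher. In both lists 0 were lower, against 2.85% of all genes. With litter as a block, a fit in which 9.48% of all genes passed in either direction, 1 gene of each list was lower. A gene of the breakdown list counts in the totals and is not reported here.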

Additional observations from a re-analysis of the deposited data

Results flagged for a closer look

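In 60 groups of 6 libraries (each gene named by the rule given above, *Creb5* and *Prrx1* included, in each group), the gap of the highest or lowest library to its neighbour was set against the group's range. Of these groups 3 exceeded Dixon's 95% critical value. Genes named besides these, such as *Stab2* with its high value in tdTomato 3a, were not checked. Chance flags about 1 in 20 groups. *Has1* in tdTomato 3b stood at 525, with the next tdTomato library at 149. *Cemip* in iCreb5 3a stood at 27.8, with the next iCreb5 library at 8.22. *Lyve1* in iCreb5 6 stood at 431, with the next at 244.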

How the results depend on the processing

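The count of the 7 hyaluronan genes past the threshold was 0 in the comparison as reported and in all 24 alternatives. Over all genes, litter as the replicate block (the paired fit) gave 859 higher and 728 lower, and 3 against 3 libraries without litter 3 gave 84 higher and 57 lower. Leaving out 1 library at a time gave 484 to 705 higher and 369 to 511 lower. The block moved 1 call of the named genes, *Tnfaip6*. Without litter 3, adjusted p rose to 0.266 for the mouse gene *Creb5*, 0.566 for *Gfpt2*, 0.693 for *Ugdh*, 0.222 for *Gfpt1*, 0.296 for *Ezr* and 0.268 for *Bcan*, so that 0 precursor genes and 1 CD44 partner were lower. With litter as a term in the same 6 libraries, *Gfpt1* (0.0379) and *Ezr* (0.0398) passed and *Creb5* (0.0501), *Gfpt2* (0.100), *Ugdh* (0.397) and *Bcan* (0.0932) did not. With the block, 1 matrix gene was higher. With the block and litter 3 averaged to 1 value, *Ugdh* had an adjusted p of 0.168. Genes with changes near 0 reversed sign. *Has1* gave -0.0512 without tdTomato 3a and 5b, -0.0577 with edgeR and -0.0519 with DESeq2. *Hyal1* gave 0.0097 with litter 3 averaged, 0.0575 with equal totals, 0.0292 without litter 3, 0.0353 without tdTomato 3a and 5b, 0.0116 with edgeR, 0.0131 with DESeq2, and -0.0666 to 0.0586 leaving out 1 library. *Cd44* gave -0.0375 without litter 3, and *Gpi1* -0.027 without iCreb5 5 and 6. *Gusb* gave 0.0366 with litter 3 averaged, 0.0624 with equal totals, 0.0783 without litter 3, and -0.062 to 0.0389 leaving out 1 library. *Vcan* gave 0.0277 without tdTomato 3a and 5b, and -0.132 to 0.0063 leaving out 1. *Mmp14* gave -0.0856 with litter 3 averaged, -0.172 without litter 3, -0.0672 without tdTomato 3a and 5b, and -0.0733 to 0.0903 leaving out 1. *Rdx* gave 0.0181 with equal totals, 0.0384 without tdTomato 3a and 5b, and -0.099 to 0.0186 leaving out 1. The cause was not tested. Depth limits *Has3*, *Cemip* and *Bcan*, whose values lie near that of a few reads.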

Other observations

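Libraries of a group varied together in some genes. After subtracting each group's mean, over 12 libraries that share litters and sorts, the genes most like *Has2* among the 16733 tested were *Gm13652* (Pearson r = 0.94), *Sacm1l* (0.93) and *Gpr149* (0.93), and those most like *Cd44* were *Klhl25* (0.94), *Fbxo32* (0.94) and *Ube4a* (0.93). Of these, *Fbxo32*, a ubiquitin ligase gene known from muscle atrophy, was itself higher in iCreb5 (log2 change 3.26, limma adjusted p = 7.61e-07). Among the 6 tested hyaluronan genes the highest r was that of *Has2* with *Cd44* (0.53) and the lowest that of *Hyal2* with *Cd44* (-0.51). These are descriptions of the libraries, with the best of many genes chosen in the first case.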
